A study of Homo sapiens with 4 samples.

Results

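The 8 genomic windows described here surround 9 imprinted genes: H19 and IGF2 (1 shared window), KCNQ1OT1, MEG3, SNRPN, GNAS, PEG3, PEG10 and MEST. The windows were fixed by GRCh37 coordinates, are 200 to 350 kb long, and cover 2.15 Mb in all. A CTCF peak was a member when its summit lay inside a window. In all, 35 of the 33868 peaks of the 4 lists were members, and they merged into 13 of 13962 regions.

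The lists came from ChIP-seq (sequencing of immunoprecipitated chromatin) with CTCF as the target in K562, a human erythroleukaemia cell line. Of the 4 libraries, 2 were biological replicates from cells given aclarubicin and 2 were biological replicates from cells given daunorubicin, each at 10 µM for 4 hours. Both drugs are DNA-intercalating anthracyclines; daunorubicin also poisons topoisomerase II. Untreated cells were not analysed here, and each comparison sets one drug against the other in a single cell line.

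Genomic imprinting is expression from only 1 parental allele, set by DNA methylation of control regions in the germ line. CTCF, a zinc-finger protein that binds DNA and anchors chromatin loops, is best known at the H19 and IGF2 locus. There it binds the unmethylated maternal control region and keeps enhancers from IGF2, while methylation of the paternal copy prevents binding. Peak lists do not separate the parental alleles, and the copy number of each locus in K562 was not analysed here.

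A genome sequence and gene annotation of the files' build were not used here, so no peak is assigned to an exon, intron, promoter or control region. A gene name given to a region or peak names its window only. To show what a CTCF-type sequence looks like at these genes, RefSeq promoter stretches (GRCh38.p14, 300 bases each) were searched on both strands for CCNNNAGGNGGC, a simplified core of the CTCF motif. They were found for GNAS, H19, MEG3, MEST and SNRPN, 5 of the 9 genes, with 19 stretches in all. Of these, 3 held the core: 1 of GNAS and 2 overlapping ones of MEST that share the same match. Among all 35116 promoter stretches, 4.64% held it. Both matches lie on the strand opposite to the gene, are shown in capitals as read along the gene, and have 40 bases on either side. The build differs from that of the peaks, so the matches could not be placed against the peaks. The GNAS stretch is chr20:58839557-58839648 (+ strand) and the MEST stretch is chr7:130491865-130491956 (+ strand).
GNAS: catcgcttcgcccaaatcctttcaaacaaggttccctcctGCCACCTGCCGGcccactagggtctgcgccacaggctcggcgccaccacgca
MEST: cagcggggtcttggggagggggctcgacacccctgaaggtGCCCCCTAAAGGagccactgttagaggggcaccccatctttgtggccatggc

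The windows held 12 and 9 peaks in aclarubicin replicates 1 and 2, and 6 and 8 peaks in daunorubicin replicates 1 and 2. Aclarubicin lists thus averaged 10.5 ± 2.12 peaks (SD, n = 2) in the windows, and daunorubicin lists 7.0 ± 1.41 (SD, n = 2). The counts of the drugs did not overlap, but aclarubicin replicate 2 and daunorubicin replicate 2 were only 1 peak apart. An exact permutation test over libraries (two-sided) gave p = 0.333, below which 2 against 2 libraries cannot go. The whole lists held 10633 and 10711 peaks under aclarubicin, and 5886 and 6638 under daunorubicin. As a share of its list, the windows held 0.113% (95% Wilson interval 0.0646% to 0.197%) and 0.0840% (0.0442% to 0.160%) under aclarubicin. They held 0.102% (0.0467% to 0.222%) and 0.121% (0.0611% to 0.238%) under daunorubicin. The shares of the drugs overlapped (exact two-sided permutation p = 0.667), and the intervals, which cover counting error only, were far wider than the differences. Lists of equal length, each with its 5886 peaks of highest −log10 p, turned the direction of the difference in peak number. It went from 0.585 to -0.14 on the log2 scale (aclarubicin over daunorubicin).

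Peak numbers differed between the windows, which also differ in length and in the peak density of their chromosomes. Under aclarubicin, chromosome 19 (PEG3) held 13.69 and 14.25 peaks per Mb, and chromosome 7 (PEG10 and MEST) 3.21 and 3.20. Whether the windows differed beyond this was not tested. H19/IGF2 had the most in the aclarubicin lists, with 4 in each, and none in daunorubicin replicate 1. KCNQ1OT1, MEG3, SNRPN and PEG3 had at least 1 peak in every library. GNAS and MEST each lacked a peak in 1 library, and PEG10 was empty in all 4.

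**Figure D1:**
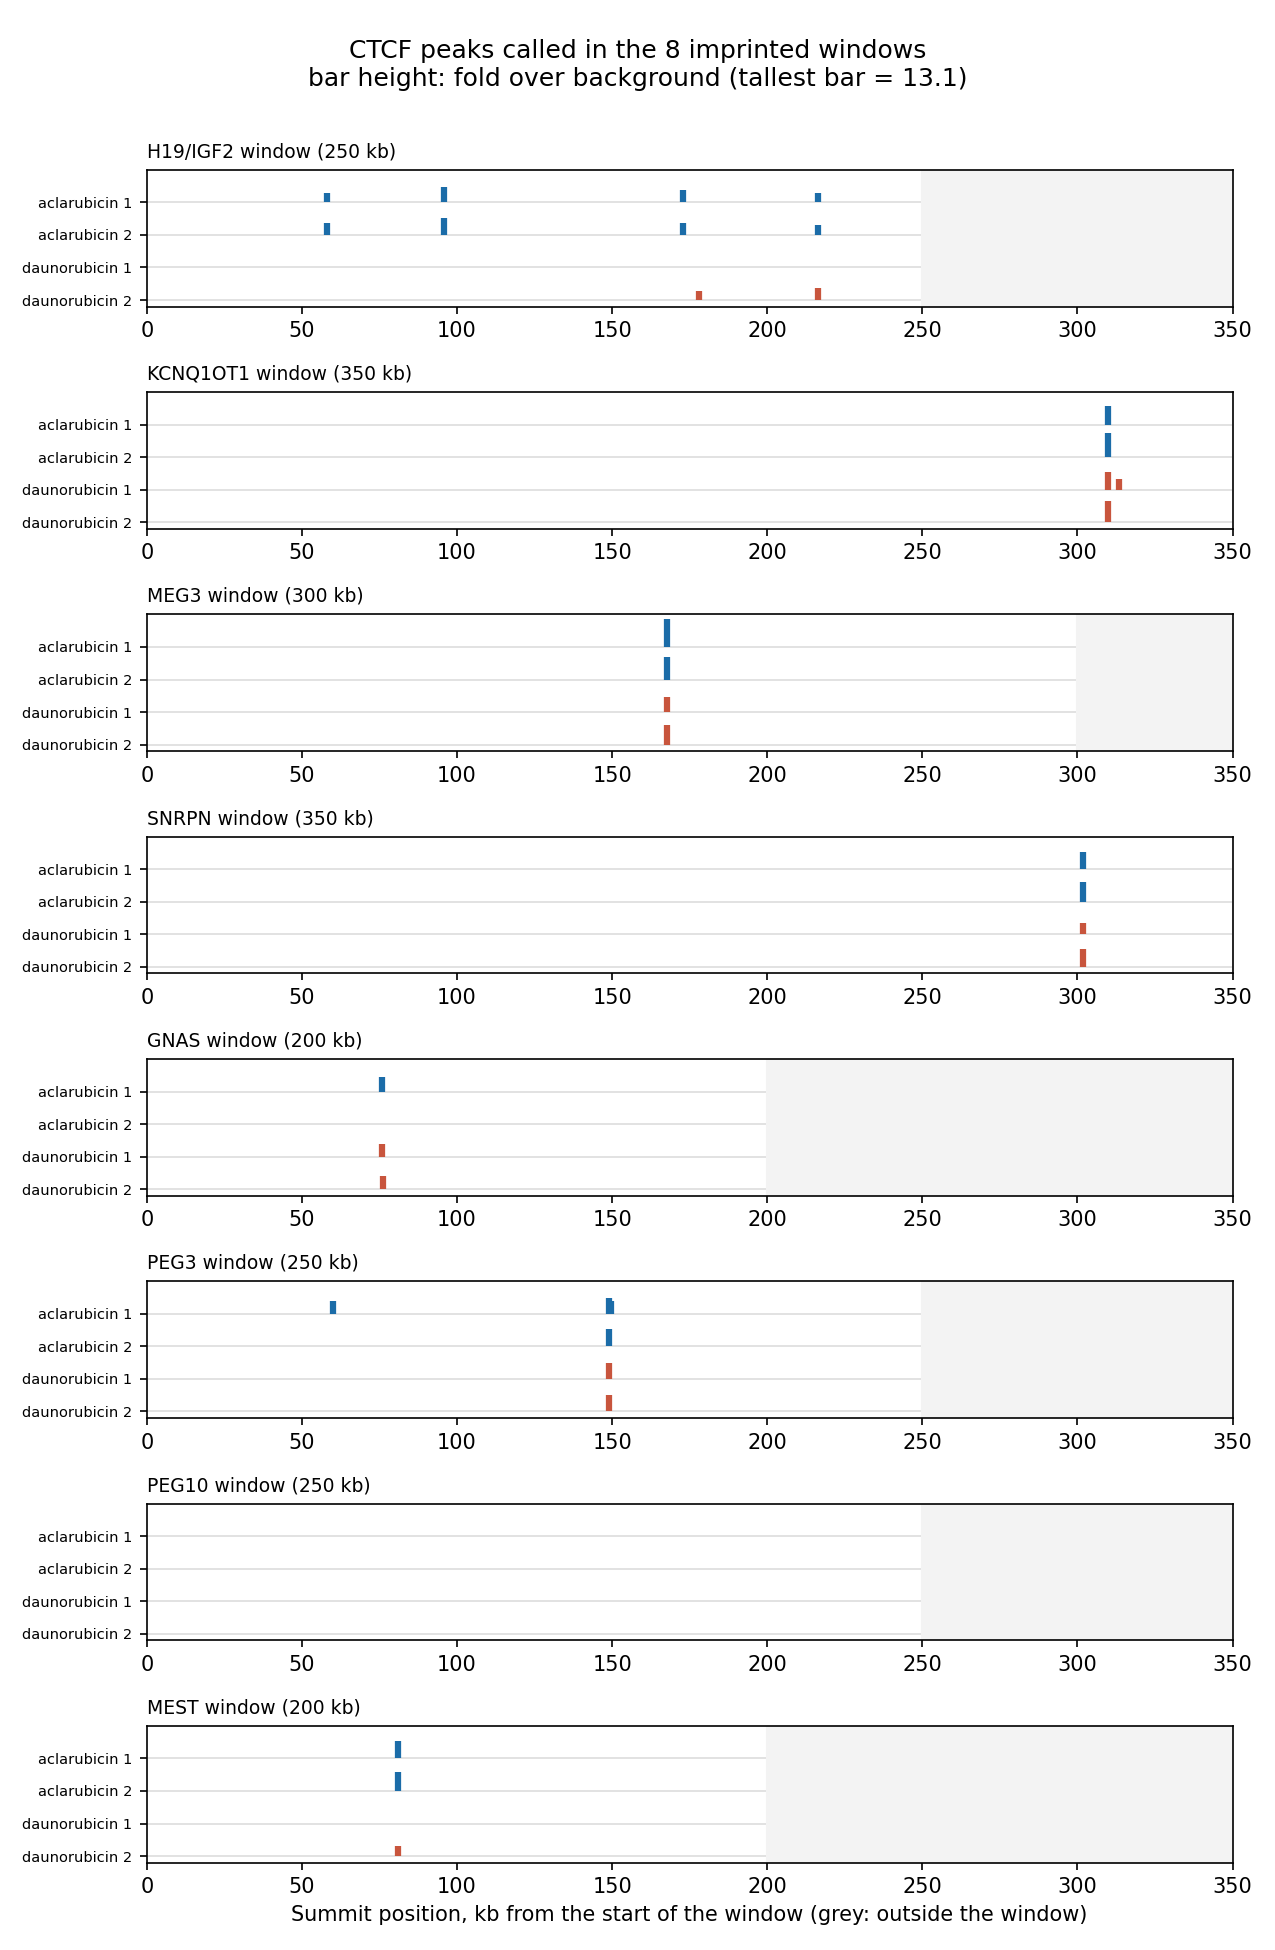
Each panel is 1 window and each line 1 library. Bars mark peak summits by their distance from the start of the window in kb, and their height is the fold over background that the authors gave each peak (tallest 13.1, in the MEG3 window). H19/IGF2 shows 4 bars in both aclarubicin replicates, none in daunorubicin replicate 1 and 2 in daunorubicin replicate 2; the PEG10 window is empty.

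By fold, the median member peak lay near the middle of its list. Ranked by the authors' fold over background within each list, their median percentile was 44.5 and 57.9 in the aclarubicin lists and 40.5 and 39.6 in the daunorubicin lists. The ranks reached from 11.0 to 89.3 in aclarubicin replicate 1 and from 3.67 to 76.4 in daunorubicin replicate 2, and no member of any list ranked above 89.3. Ranks by −log10 p were lower: the mean of the 4 lists' median percentiles was 38.2, against 45.6 by fold. Median widths were 331 and 405 bp under aclarubicin, beside 369 and 381 bp over the whole lists. Under daunorubicin they were 286 and 290 bp, beside 319 and 328 bp.

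Of the 13 member regions, 4 were called in all 4 libraries, against 29.5% of all merged regions. Another 3 were found by both aclarubicin lists and by no daunorubicin list (aclarubicin-only), against 23.8% of all regions. None was found by both daunorubicin lists and by no aclarubicin list, a class that held 3.17% of all regions. As percentages, 30.8% and 23.1% of the members fell into the first 2 classes, so their counts were near the background. With each list cut to its 5886 peaks of highest −log10 p, 1 region was aclarubicin-only and 1 daunorubicin-only. The shares over all regions given above are from the full lists and do not apply to these cut lists.

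The H19 and IGF2 window, chr11:2000001-2250000, held all 3 aclarubicin-only regions. H19 is a maternally expressed non-coding RNA and IGF2 a paternally expressed growth factor; in the RefSeq gene order H19 lies at the lower-coordinate side, with IGF2, INS and TH after it. The first 58.2 kb of the window held no peak summit in any library. The position of the control region was not determined here, and no region of the window was assigned to it. The first region, chr11:2058086-2058405, had folds of 4.23 and 5.43 in aclarubicin replicates 1 and 2, and its summits were 9 bp apart. The second, chr11:2095513-2095847, was the strongest by rank in this window, with folds of 7.33 and 8.06 at percentiles 48.1 and 56.2. Its summits in both replicates lay 1 bp apart. The third, chr11:2172646-2173380, had folds of 5.90 and 5.60. Its summits lay 53 bp apart. Each of the 3 was thus found in both aclarubicin replicates with summits at most 53 bp apart, and was listed in no daunorubicin library.

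The remaining H19/IGF2 regions were found in daunorubicin replicate 2. At chr11:2216116-2216558 the fold was 4.66 and 4.79 under aclarubicin and 5.89 in that daunorubicin replicate, which had 16 fragments over the summit against 24 and 29 in the aclarubicin replicates. This fragment number was recovered from the fold and p of each peak under an assumed formula and is not scaled for depth. At chr11:2177770-2178045 daunorubicin replicate 2 alone had a peak, with a fold of 4.34 at percentile 3.67 of its list. That peak began 4.39 kb beyond the end of the third aclarubicin-only region. Daunorubicin replicate 1 listed its nearest peaks 96.2 kb before and 76.7 kb after the window.

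The share of aclarubicin regions missing from the daunorubicin lists falls with their fold rank. The members were therefore set beside all regions of like fold rank, without matching their fragment numbers. The 8824 regions in both aclarubicin lists were split into 10 deciles by their mean fold percentile, 1 being the weakest. The 3 H19/IGF2 regions, in genome order, fell into deciles 2, 5 and 3, in which 65.2%, 39.5% and 55.7% of all regions were aclarubicin-only. The H19/IGF2 region seen again in daunorubicin replicate 2 belonged to decile 1, where 76.4% were aclarubicin-only. The PEG3 region called in all 4 libraries lay in the same decile as the aclarubicin-only region of H19/IGF2 with the highest fold rank. The 2 were not alike in fragments over the summit. PEG3 had 46 and 55 in aclarubicin replicates 1 and 2, against 22 and 29 in the H19/IGF2 region. In the plot of fold rank, the 4 regions found in every library all lay in decile 5 or above, as did 80.7% of all regions called everywhere.

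**Figure D2:**
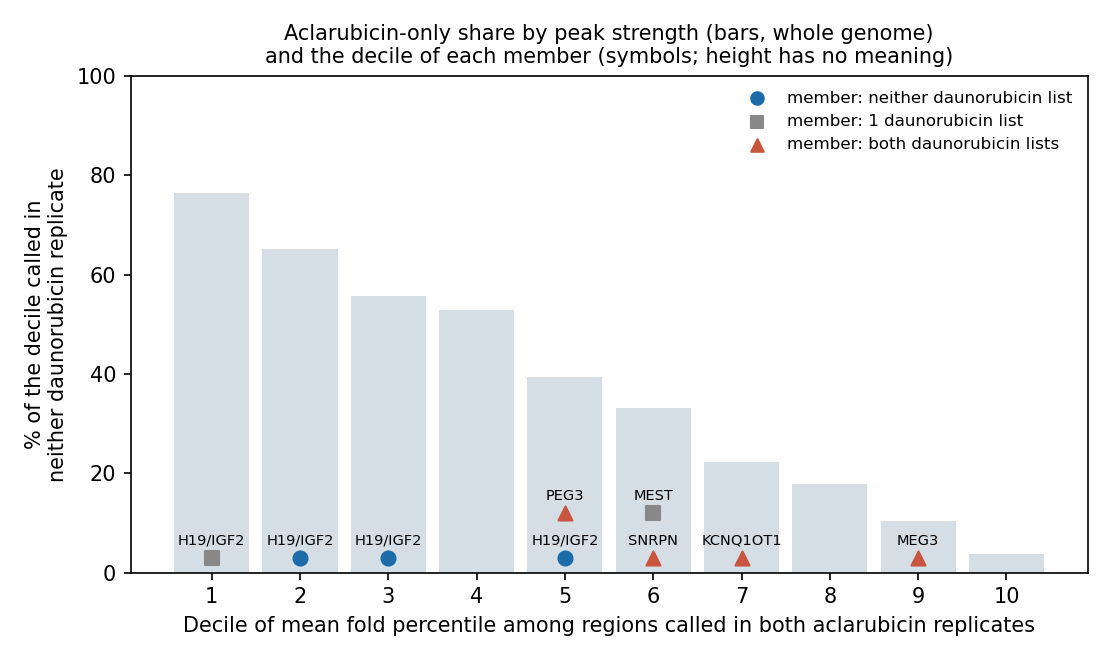
Bars give, for each decile of mean fold percentile among the 8824 regions in both aclarubicin lists, the percentage missing from both daunorubicin lists; they fall from 76.4% in decile 1 to 3.74% in decile 10. Symbols mark the decile of each of the 9 member regions in both aclarubicin lists and how many daunorubicin lists held it (their height has no meaning).

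The regions called in every library were compared between the drugs by fragments over the summit. Each library was divided by its median over the 4122 regions called in all 4 libraries, so that 1 stands for a typical shared region of that library. The medians were 76.0 and 80.0 fragments under aclarubicin and 41.0 and 43.0 under daunorubicin. The difference was tested with limma across all 4122 regions, with Benjamini-Hochberg adjustment. Over all shared regions, 22.1% were higher and 20.7% lower under daunorubicin at an adjusted p under 0.05. Of the 4 members, 1 was lower, also the only one at an unadjusted p under 0.05 (against 50.2% of all shared regions), and none was higher; the median log2 difference was -0.13 against 0.01 for all shared regions. The members' count was thus close to the background. Scaling by a relative depth in place of the median shifted the median of all shared regions to -0.70, and 110 regions were then higher and 2290 lower, against 909 and 854.

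MEG3, a maternally expressed non-coding RNA of the DLK1 locus, was the member with the clearest difference. Its only region, chr14:101317419-101317890, had folds of 13.1 and 10.8 in aclarubicin replicates 1 and 2 and of 7.14 and 9.20 in daunorubicin replicates 1 and 2. Summits of the 4 libraries lay within 21 bp. Fragments over the summit numbered 97 and 83 under aclarubicin and 27 and 38 under daunorubicin. Relative to the median shared region these were 1.28 and 1.04 under aclarubicin and 0.659 and 0.884 under daunorubicin, so the drugs did not overlap. Among all shared regions, 34.8% had this pattern, with both daunorubicin values below both aclarubicin values, and 35.1% had the opposite one. The log2 difference was -0.59 ± 0.22 (SE; 95% interval -1.03 to -0.16), a 0.663-fold level under daunorubicin, with an adjusted p of 0.0204 in limma. This SE was pooled over regions of like fragment number, so the region's own replicate spread hardly entered it. The call was lost among regions with a mean of at least 50 fragments (-0.45, adjusted p = 0.103), without aclarubicin replicate 1 (-0.46, adjusted p = 0.285), without aclarubicin replicate 2 (-0.76, adjusted p = 0.0530) and without daunorubicin replicate 1 (-0.36, adjusted p = 0.175). Without daunorubicin replicate 2 the value was -0.82 (adjusted p = 0.00173); in each fit with a library left out, the spread came from the other drug's 2 libraries and limma's pooling over regions, and the lone library was assumed to vary like them.

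KCNQ1OT1 is the paternally expressed antisense RNA within KCNQ1 that silences its neighbours in cis. The shared region in its window, chr11:2909571-2910064, lay 309.8 kb from the window's start, and no library listed a summit between. Its position relative to the gene was not determined. Among the 4 shared member regions it had the highest mean relative fragments under each drug, and its 4 summits lay within 8 bp. It had 89 and 124 fragments under aclarubicin and 51 and 53 under daunorubicin, or 1.17 and 1.55 against 1.24 and 1.23 times the median shared region. Both daunorubicin values lay between the aclarubicin replicates. The log2 difference was -0.12 (95% interval -0.51 to 0.26), with an adjusted p of 0.648 in limma. Daunorubicin replicate 1 had a further peak 3.31 kb away, chr11:2913377-2913640, with a fold of 4.99, that no other library listed.

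SNRPN is a paternally expressed gene of the Prader-Willi region that encodes a splicing protein. The only region in its window, chr15:25301527-25301954, lay 301.8 kb from the window's start and was not assigned to the gene. Fragments numbered 42 and 46 under aclarubicin and 19 and 26 under daunorubicin. Relative to the median shared region, the values were 0.553 and 0.575 against 0.463 and 0.605. The daunorubicin replicates lay on either side of the aclarubicin ones. The log2 difference was -0.09 (95% interval -0.61 to 0.43), with an adjusted p of 0.813 in limma. The fold of daunorubicin replicate 1, 5.35, ranked at percentile 18.7 of its list, whereas the other 3 libraries ranked this region between 56.2 and 66.5.

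PEG3 encodes a paternally expressed zinc-finger protein. Its shared region, chr19:57348762-57349936, was 1175 bp long, the longest of the members. Aclarubicin replicate 2 listed a single peak of 1173 bp there, and aclarubicin replicate 1 listed 2 peaks, of 336 and 590 bp. In the daunorubicin replicates only the lower-coordinate end was covered, by peaks of 283 and 290 bp. The strongest peak of each library gave 46 and 55 fragments under aclarubicin and 23 and 26 under daunorubicin. Relative to the median shared region, these were 0.605 and 0.688 against 0.561 and 0.605. The lower aclarubicin and the higher daunorubicin value were thus equal after rounding, and the log2 difference was -0.15 (95% interval -0.65 to 0.35), with an adjusted p of 0.673 in limma. Aclarubicin replicate 1 alone had a further peak in this window, chr19:57259854-57260127, with a fold of 6.23.

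With the depth scaling, KCNQ1OT1, SNRPN and PEG3 were also lower under daunorubicin, with log2 differences of -0.83, -0.80 and -0.86 (adjusted p of 0.00539, 0.0219 and 0.0125 in limma), near the shift of the typical shared region. MEG3 was at -1.31. The intervals of the centred differences allow both a decrease and an increase for these 3 regions.

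**Figure D3:**
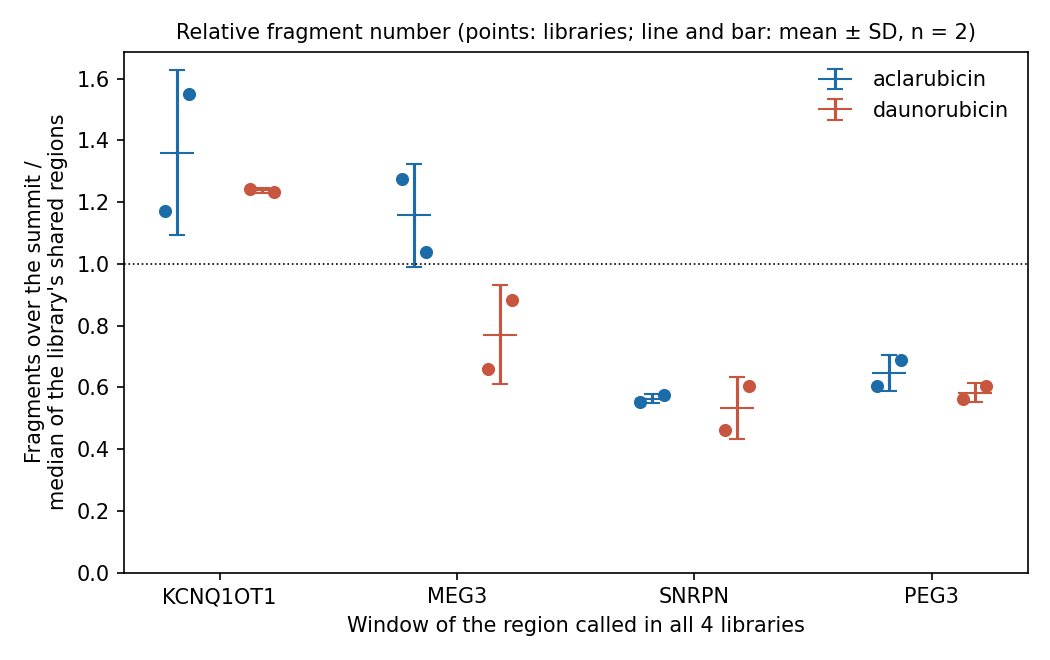
The vertical axis gives fragments over the summit divided by the library's median over the 4122 shared regions (1, dotted line), for the 4 member regions called in every library. Points are libraries, lines and bars the mean ± SD (n = 2). MEG3 shows the largest difference between the drugs, at 1.28 and 1.04 against 0.659 and 0.884. The gap between the drugs there is smaller than that between the replicates of either drug.

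**Figure D4:**
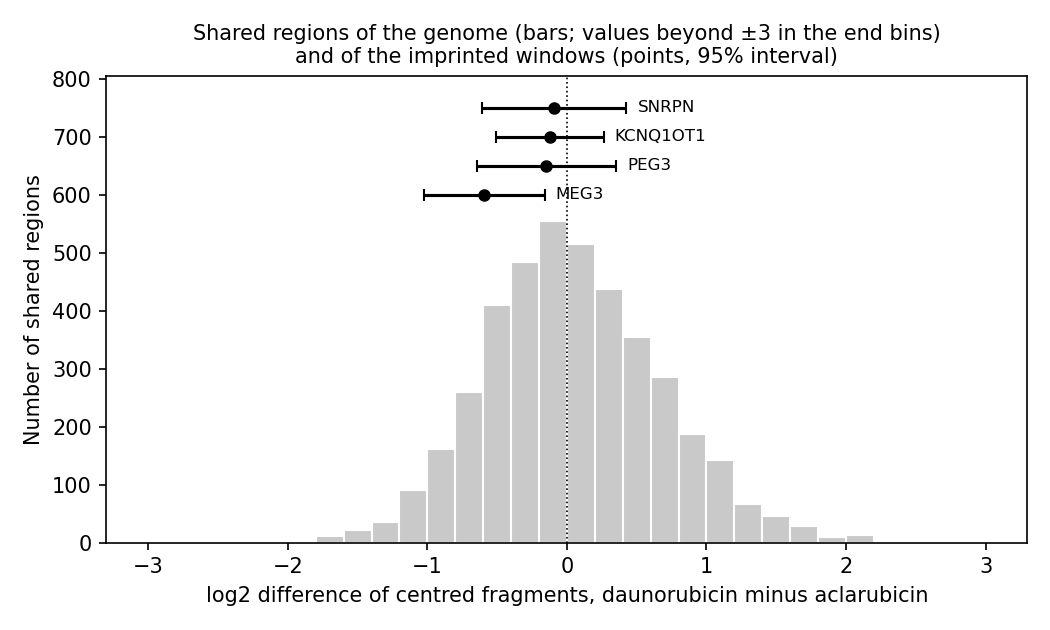
Grey bars count the 4122 shared regions by log2 difference in centred fragments (daunorubicin minus aclarubicin). Black points with 95% intervals are the 4 members: MEG3 lies at -0.59 and the other members between -0.15 and -0.09, inside the bulk of the bars.

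GNAS and MEST were each found in 3 libraries, as was the last H19/IGF2 region; these were 3 of 13 members (23.1%), against 12.1% of all regions. GNAS encodes the stimulatory G-protein alpha subunit and, from other promoters, transcripts of either parental origin. Its region, chr20:57425800-57426100, had folds of 6.68 in aclarubicin replicate 1 and of 6.22 and 6.36 in the daunorubicin replicates, and was not listed in aclarubicin replicate 2. It was the only member region found in both daunorubicin lists and in a single aclarubicin list, a class that held 2.2% of all regions. Fragments numbered 26 in aclarubicin replicate 1 and 24 and 21 in daunorubicin replicates 1 and 2. These were 0.342 times the median shared region in the former and 0.585 and 0.488 times in the latter.

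MEST, a paternally expressed gene for a protein of the hydrolase-fold family, showed the opposite pattern, as did the last H19/IGF2 region. Of the 1683 regions called in 3 libraries, 307 had the GNAS pattern and all others the MEST pattern. The MEST region, chr7:130130624-130131061, had folds of 8.18 and 8.91 in aclarubicin replicates 1 and 2 and 4.91 in daunorubicin replicate 2. These ranked at percentiles 56.7, 64.4 and 8.06 of their lists. Daunorubicin replicate 1 listed no peak in the window. Fragments numbered 45 and 52 under aclarubicin and 16 in daunorubicin replicate 2. Relative to the median shared region, these were 0.592 and 0.650 against 0.372. In decile 6 of fold rank, to which this region belonged, 47.3% of all regions were called in every library and 33.2% were aclarubicin-only. A library without a call has no value, so neither GNAS nor MEST was tested.

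PEG10, a paternally expressed gene derived from a retrotransposon, was the only locus with an empty window in all 4 libraries, chr7:94150001-94400000. The nearest peaks flanked it at nearly the same places in every library. The one before lay 125 kb from the window in each, and its fold was 10.5 and 9.25 in the aclarubicin lists and 6.45 and 5.80 in the daunorubicin lists. The one after lay 741 kb away, and its fold was 8.43 and 9.44 in the aclarubicin lists and 8.04 and 5.39 in the daunorubicin lists. Over the whole of chromosome 7 the lists held 3.21 and 3.20 peaks per Mb after aclarubicin and 1.70 and 1.93 after daunorubicin.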

How the data were processed

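The deposited data are 1 list of CTCF peaks per library in narrowPeak columns, without a header. Per the submitters' processing notes, Bowtie2, Picard and bedtools were used with GRCh37 (hg19); the peak caller, any control library and its thresholds are not given in the sources used here. By the format, the authors' deposited columns are a fold enrichment ratio, a −log10 p, a −log10 q and a score (10 times the −log10 q). The authors' lists were made per library; the lowest −log10 q was 2.02 to 2.21.

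Coordinates are 1-based. Intervals sharing at least 1 bp were merged over the lists, and the strongest peak of a library stood for it. Fragments k over a background λ were solved from fold = (k + 1)/(λ + 1) and the Poisson p of more than k; this formula is an assumption. In 100% of peaks k came out whole, to within 0.02. Relative depth (lowest λ over shortest peak) was 1.0, 1.04, 0.997 and 0.814 for aclarubicin 1 and 2 and daunorubicin 1 and 2. The files hold no read totals.

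log2 k, centred per library, was tested with limma 3.58.1 (R 4.3.3; trended prior, threshold 0.05) over the 4122 regions called everywhere, after a test on simulated data. Peak numbers and shares were tested with exact permutations over libraries. Groups and replicate numbers came from the labels. These name biological replicates but neither separate cultures nor a batch or day shared by a number, so any pairing is unknown. The libraries were analysed as unpaired except with the replicate block. Permutation p-values rest on the spread between these libraries. In the main limma fit, the intervals were those of a normal distribution around each estimate. Its SE thus came almost wholly from spread pooled over regions of like fragment number. A region's own replicate spread hardly entered its limma p-value. Every window, every region called everywhere or by both replicates of a single drug, and the top region of each window were named. The members and lists were chosen with earlier results of these data known. Alternatives were stricter thresholds, equal lists, other window and region definitions, other scaling, prior and filter, a replicate block and leaving out each replicate. Python 3.11.15, numpy 2.4.6, pandas 2.3.3, scipy 1.17.1 and matplotlib 3.10.9 were used.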

Additional observations from a re-analysis of the deposited data

How the results depend on the processing

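The log2 difference in peak number kept its direction in 10 of 11 alternatives and lay between 0.363 and 0.807 with 1 replicate left out; lists of equal length turned it to -0.14. The difference in share of the list, -0.0128 percentage points, became 0.00746 with a fold of at least 5 and 0.0113 with windows widened by 50 kb, and lay between -0.0272 and 0.00163 with 1 replicate left out (above 0 without aclarubicin replicate 2). With the replicate number as a block, these differences stayed at 0.585 and -0.0128, and the smallest possible p was 0.5. Same-numbered libraries did not deviate together (r = -0.08 over 4122 shared regions), and in the block fit 833 shared regions were higher and 784 lower.

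Widened windows gave 7 regions in all libraries and 6 aclarubicin-only ones. Equal lists gave 1 aclarubicin-only and 1 daunorubicin-only region. With 1 replicate left out, there were 4 to 6 regions in all remaining libraries, 3 to 5 aclarubicin-only and 0 to 1 daunorubicin-only, since 1 list then defines a class. Aclarubicin-only regions numbered 5 without aclarubicin replicate 2 and 5 without daunorubicin replicate 2. The shares over all regions under these settings are not given here, so these counts cannot be set against a background.

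Shared regions called higher numbered 110 and lower 2290 with depth scaling, and 490 and 543 with a mean of at least 50 fragments, which tests fewer regions. They lay between 591 and 976 (higher) and 441 and 1061 (lower) with 1 replicate left out, and were lowest without aclarubicin replicate 1. At KCNQ1OT1 the log2 difference became 0.019 with the fragment filter and lay between -0.34 and 0.059 with 1 replicate left out. At SNRPN it lay between -0.30 and 0.12, above 0 without daunorubicin replicate 1. At MEG3 it was -0.45 (adjusted p = 0.103) with the fragment filter and -0.59 (adjusted p = 0.0303) with the block, and at PEG3 it stayed below 0 in all 7 alternatives that gave a value. Other causes of these shifts were not tested. Libraries give no value where they list no peak, which limits the fragment comparison to 4 of 13 members.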
